A study of Mus musculus with 4 samples.

Results

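The genes described here are targets of p53 and genes that promote apoptosis, in rib chondrocytes of 4 mouse genotypes. They were chosen by name. All probe sets that the annotation of the array assigns to *Trp53*, *Cdkn1a*, *Mdm2*, *Ccng1*, *Pmaip1*, *Bbc3*, *Bax*, *Perp*, *Fas* or *Trp53inp1* were taken, each with its signal on every array. Of these 10 genes, 8 had at least 1 probe set that names them, with 14 probe sets in all out of 45037, and the 8 genes stand among 18193 that the array measures. *Trp53*, which encodes p53 itself, and *Bax*, which encodes a pore-forming member of the BCL2 family, were not analysed here.

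All mice carried the C57BL6/J background and were 5 days old. *Matn3* mutant chondrocytes came from mice homozygous for V194D in matrilin-3, a cartilage matrix protein, with functional *Xbp1* (*Xbp1* WT *Matn3* V194D). XBP1 null chondrocytes (*Xbp1* Col2CreΔex2) carried wild type *Matn3*, and their *Xbp1* had lost exon 2 through a Cre recombinase driven by the *Col2a1* promoter, so that the deletion is limited to cells in which this promoter is or was active. Double mutant chondrocytes (*Xbp1* Col2CreΔex2 *Matn3* V194D) carried both changes, and wild type chondrocytes carried neither. Cells were released from the ribs of pooled litters by collagenase digestion, RNA of 3 extractions was pooled, and each genotype was measured on 1 array, so that no difference between 2 arrays has an error or a p-value.

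The transcription factor p53 is stabilized by DNA damage and by other kinds of stress, and it then switches on genes that stop the cell cycle, genes that repair DNA and genes that lead to cell death. *Mdm2* encodes the ubiquitin ligase that marks p53 for degradation and is itself a p53 target, which closes a feedback loop. Death through mitochondria depends on proteins that carry a BH3 domain, such as PUMA (*Bbc3*) and NOXA (*Pmaip1*), which neutralize antiapoptotic BCL2 proteins. XBP1 is a transcription factor of the unfolded protein response, which cells mount when misfolded protein gathers in the endoplasmic reticulum (ER).

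The arrays had nearly equal medians, with a signal of 43.8 on each, and each array had 8.36% to 10.9% of its signals under 1. Those were set to 1 before log2 was taken. A gene is given by its brightest probe set, and its difference was counted as higher or lower where it passed 1.5-fold, a size of change and not a test. *Xbp1* had signals of 11403 in *Matn3* mutant, 7877 in XBP1 null, 9548 in double mutant and 8183 in wild type chondrocytes. Whether its probe set lies in the deleted exon was not analysed here, so these signals do not check the deletion. The 10 chondrocyte markers, among them *Col2a1* and *Acan*, summed to between 108934 and 131687 on the 4 arrays. One of them, *Matn1*, was 1.76-fold lower in *Matn3* mutant and 1.71-fold lower in double mutant than in wild type chondrocytes. The *Matn3* mutant pool stood apart in its Y-linked genes, since *Eif2s3y* had a signal of 0.032 there and of 484 to 855 on the other arrays. Markers of endothelium summed to 434 in *Matn3* mutant, 3744 in XBP1 null, 719 in double mutant and 61.3 in wild type chondrocytes. Markers of osteoblasts summed to 2627, 7826, 5266 and 5001 in the same order. The part of these cell types, and that of the sex of the pooled pups, in the differences below was not tested. In RNA of whole cell preparations, fewer cells of a type and less RNA per cell cannot be told apart.

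Of the 8 genes, 5 have a promoter in the RefSeq set of mouse promoters (build GRCm38.p6), in 8 windows that run from 250 bases before a transcription start to 50 bases after it. The consensus half-site of p53, a motif of 10 bases that reads the same on both strands, was found in 3 of these 8 windows (37.5%), against 8.36% of all 32851 windows of this length. The matches lay upstream of *Mdm2* and *Ccng1* and upstream of the first of the starts of *Cdkn1a*. A stretch is shown for each window that held a match. The stretches are printed 5′ to 3′ on the strand of the gene, with the letters that match the half-site in capitals. A match describes the letters and is not evidence of binding.
*Cdkn1a*, chr17:29090854-29090978, plus strand: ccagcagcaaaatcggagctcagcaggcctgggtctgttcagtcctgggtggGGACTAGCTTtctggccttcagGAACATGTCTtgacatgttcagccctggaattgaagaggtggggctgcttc
*Mdm2*, chr10:117710915-117710964, minus strand: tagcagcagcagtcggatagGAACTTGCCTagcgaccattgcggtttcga
*Ccng1*, chr11:40755442-40755491, minus strand: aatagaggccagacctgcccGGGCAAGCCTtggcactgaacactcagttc
The matches of *Cdkn1a* began 73 and 51 bases before its start, the match of *Mdm2* 186 bases before and the match of *Ccng1* 185 bases before. The windows of *Bbc3* and *Fas* and the second window of *Cdkn1a* held no match. *Pmaip1*, *Perp* and *Trp53inp1* had no window.

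*Cdkn1a* encodes p21, the inhibitor of cyclin-dependent kinases through which p53 halts the cell cycle. Its brightest probe set had signals of 5286 in *Matn3* mutant, 6958 in XBP1 null, 7764 in double mutant and 3342 in wild type chondrocytes. All 3 mutant arrays were above the wild type array, by 1.58-fold in *Matn3* mutant, 2.08-fold in XBP1 null and 2.32-fold in double mutant chondrocytes. A second probe set had signals of 4429, 4551 and 4899 in *Matn3* mutant, XBP1 null and double mutant chondrocytes, against 1906 in wild type. It gave 2.32-fold, 2.39-fold and 2.57-fold in the same order, so both probe sets placed double mutant chondrocytes highest, with the mutants closer to each other on the second. Double mutant over *Matn3* mutant chondrocytes was 1.47-fold on the brightest probe set and 1.11-fold on the second. Over XBP1 null chondrocytes it was 1.12-fold and 1.08-fold.

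The summed signal of markers of cycling cells was lower in every mutant than in wild type chondrocytes. The 7 measured, among them *Mki67* and *Top2a*, summed to 4076 in *Matn3* mutant, 6054 in XBP1 null, 4707 in double mutant and 7284 in wild type chondrocytes. In *Matn3* mutant over wild type 6 of the 7 were over 1.5-fold lower, in XBP1 null over wild type 1 was, and in double mutant over wild type 5 were. Of all genes at or above the median intensity, where the 7 lie, 17.6%, 5.82% and 6.89% were lower in these comparisons. The order of the genotypes in this sum was not the reverse of the order in *Cdkn1a*, since XBP1 null chondrocytes were second highest in both. The part of cycling cells in the *Cdkn1a* signal was not tested.

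**Figure D1:**
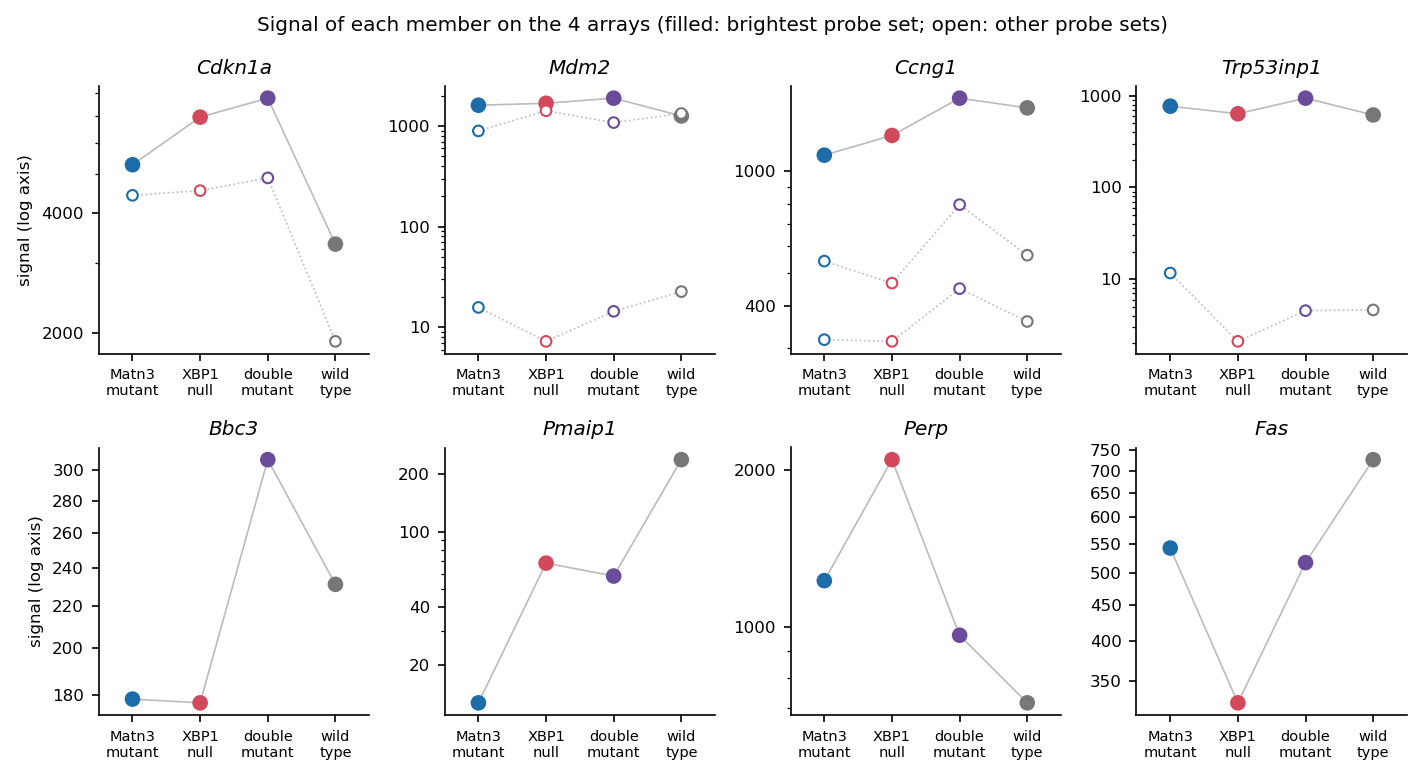
Signal of the 8 genes on the 4 arrays, 1 point per array and probe set, on a log axis whose range differs between panels. Filled points are the brightest probe set of a gene, open points its other probe sets, and lines join the points of a probe set. *Cdkn1a* was lowest in wild type chondrocytes on both probe sets, and *Pmaip1* ran between 12.6 in *Matn3* mutant and 238 in wild type chondrocytes.

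*Mdm2*, which encodes the ligase that keeps p53 low, had signals of 1605 in *Matn3* mutant, 1678 in XBP1 null, 1887 in double mutant and 1256 in wild type chondrocytes on its brightest probe set. The order was that of *Cdkn1a*, but the differences were smaller, at 1.28-fold in *Matn3* mutant and 1.34-fold in XBP1 null chondrocytes over wild type. Double mutant over wild type chondrocytes lay at the threshold, with a log2 difference of 0.59. The second probe set had signals of 892, 1413 and 1079 in *Matn3* mutant, XBP1 null and double mutant chondrocytes, against 1329 in wild type, and its double mutant difference from wild type was −0.30. The third, with signals of 7.25 to 22.6, was below the median intensity of the array, and there all mutant arrays were below the wild type one. The probe sets of *Mdm2* therefore disagreed in direction, and its order rests on the brightest.

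*Ccng1* encodes cyclin G1, a p53 target that binds a phosphatase and MDM2. Its brightest probe set had signals of 1117 in *Matn3* mutant, 1277 in XBP1 null, 1647 in double mutant and 1542 in wild type chondrocytes. The other probe sets had signals of 542, 467 and 797 in the mutants against 565 in wild type, and of 317, 314 and 449 against 359. Double mutant chondrocytes were highest on all 3 probe sets, and both single mutants were below wild type on all 3, but quantile normalization, which makes the distributions of the arrays equal, took double mutant over wild type from 0.10 to −0.02 on the log2 scale for the brightest. Double mutant over *Matn3* mutant chondrocytes was 1.47-fold, 1.47-fold and 1.42-fold. Double mutant over XBP1 null chondrocytes was 1.29-fold, 1.71-fold and 1.43-fold, so only the second passed 1.5-fold.

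*Trp53inp1* encodes a stress protein that promotes the activity of p53 and also takes part in autophagy. Its brightest probe set had signals of 769 in *Matn3* mutant, 635 in XBP1 null, 940 in double mutant and 617 in wild type chondrocytes. Double mutant chondrocytes were 1.52-fold above wild type, *Matn3* mutant 1.25-fold and XBP1 null 1.03-fold. Quantile normalization turned the XBP1 null difference from 0.04 to −0.10 on the log2 scale and took the double mutant one to 1.44-fold. A second probe set was near the floor, with signals of 11.7, 2.10, 4.55 and 4.63 in *Matn3* mutant, XBP1 null, double mutant and wild type chondrocytes, and it had another order.

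*Bbc3* encodes PUMA, the BH3-only protein through which p53 most directly starts apoptosis. Its 1 probe set had signals of 178 in *Matn3* mutant, 177 in XBP1 null, 307 in double mutant and 231 in wild type chondrocytes. Double mutant chondrocytes stood 1.73-fold above *Matn3* mutant, 1.74-fold above XBP1 null and 1.33-fold above wild type chondrocytes. Both single mutants lay 1.30-fold to 1.31-fold below wild type, under the threshold.

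*Pmaip1* encodes NOXA, another BH3-only protein, and varied most of the 8. Its 1 probe set had signals of 12.6 in *Matn3* mutant, 68.3 in XBP1 null, 58.4 in double mutant and 238 in wild type chondrocytes. Wild type was highest and *Matn3* mutant lowest. XBP1 null chondrocytes were 3.49-fold and double mutant 4.08-fold below wild type. On the *Matn3* mutant array the signal was at the 33.1 percentile of all probe sets, and in wild type it was at the 72.4 percentile. No detection call was used, so the signals as deposited place *Matn3* mutant 18.9-fold below wild type and 4.63-fold below double mutant chondrocytes, but the sizes of these folds are uncertain. *Pmaip1* and *Bbc3*, which both encode BH3-only proteins, therefore had different orders of the genotypes.

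*Perp* encodes a membrane protein of desmosomes that p53 and its relative p63 control. Its 1 probe set had signals of 1228 in *Matn3* mutant, 2091 in XBP1 null, 966 in double mutant and 717 in wild type chondrocytes. It was 1.71-fold higher in *Matn3* mutant and 2.92-fold higher in XBP1 null than in wild type chondrocytes, and 2.16-fold lower in double mutant than in XBP1 null chondrocytes. Desmosomes are found above all in stratified epithelium. The 11 epithelial markers measured summed to 714 in *Matn3* mutant, 2496 in XBP1 null, 518 in double mutant and 1915 in wild type chondrocytes, and 2, 1, 4 and 3 of them were under a signal of 10. The keratin *Krt5* had signals of 62.3, 33.1 and 84.8 in the mutants in the same order, against 65.1 in wild type, and its partner *Krt14* had 34.1, 87.9 and 7.88 against 12.4. Most of each sum came from markers other than these keratins. XBP1 null chondrocytes were highest in both *Perp* and the epithelial sum, while wild type was lowest in *Perp* and second in the sum. Counted by gene, 4 of the 11 were over 1.5-fold higher and 3 lower in *Matn3* mutant over wild type. In XBP1 null over wild type 6 were higher and 1 lower, and in double mutant 2 and 5. Of all genes 21.2%, 23.3% and 24.1% were higher and 19.3%, 11.5% and 12.1% lower. In double mutant over XBP1 null 2 were higher and 6 lower, beside 16.6% and 16.9% of all genes. The part of epithelial cells in the *Perp* signal was not tested.

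*Fas* encodes the cell surface death receptor that activates caspase-8. Its 1 probe set had signals of 543 in *Matn3* mutant, 326 in XBP1 null, 517 in double mutant and 726 in wild type chondrocytes. All mutants were below wild type, but only XBP1 null chondrocytes passed the threshold, at 2.23-fold lower. Double mutant chondrocytes were 1.59-fold above XBP1 null. *Fas* is also expressed by leukocytes, whose 7 measured markers summed to 671 in *Matn3* mutant, 785 in XBP1 null, 758 in double mutant and 580 in wild type chondrocytes. Most of the sum came from the macrophage genes *Cd68*, at 302 to 442, and *Csf1r*, which was lowest in wild type at 108, while *Ptprc*, which encodes the leukocyte antigen CD45, had signals of 3.54 to 11.5. The part of leukocytes in the *Fas* signal was not tested.

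In *Matn3* mutant over wild type chondrocytes, which asks what the matrilin-3 mutation changes, 2 of the 8 genes were over 1.5-fold higher (*Cdkn1a* and *Perp*) and 1 was lower (*Pmaip1*). Among all 18193 genes 21.2% were higher and 19.3% lower by the same rule, and among the 10982 genes at or above the median intensity, where all 8 lie, 13.2% were higher and 17.6% lower. The median log2 difference was −0.03 over the 8 genes and 0 over all genes.

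In XBP1 null over wild type chondrocytes 2 of the 8 were higher (*Cdkn1a* and *Perp*) and 2 lower (*Pmaip1* and *Fas*). Of all genes 23.3% were higher and 11.5% lower, and of those at or above the median intensity 18.8% were higher and 5.82% lower. The median was −0.11 over the 8 genes and 0.09 over all genes.

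The double mutant was used to ask what the loss of XBP1 changes in cells that carry the matrilin-3 mutation. Over *Matn3* mutant chondrocytes 2 of the 8 genes were higher (*Pmaip1* and *Bbc3*) and 0 lower. Of all genes 17.4% were higher and 9.03% lower, and of those at or above the median intensity 11.9% and 3.00%. The median was 0.42 over the 8 genes and 0.15 over all genes.

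Over XBP1 null chondrocytes, where the *Matn3* alleles differ, the double mutant had 2 genes higher (*Bbc3* and *Fas*) and 1 lower (*Perp*). Of all genes 16.6% were higher and 16.9% lower, and of those at or above the median intensity 7.38% and 10.5%. The median was 0.27 over the 8 genes and 0 over all genes. Over wild type chondrocytes the double mutant had 3 genes higher (*Cdkn1a*, *Mdm2* and *Trp53inp1*) and 1 lower (*Pmaip1*). Of all genes 24.1% were higher and 12.1% lower, and of those at or above the median intensity 16.0% and 6.89%, with a median of 0.42 over the 8 genes and 0.13 over all genes. Under quantile normalization, and with the median over the probe sets of a gene, *Cdkn1a* alone was counted as higher, so the calls of *Mdm2* and *Trp53inp1* depend on these choices. With 8 genes, a single gene moves these shares strongly, so the counts are descriptions beside the background.

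**Figure D2:**
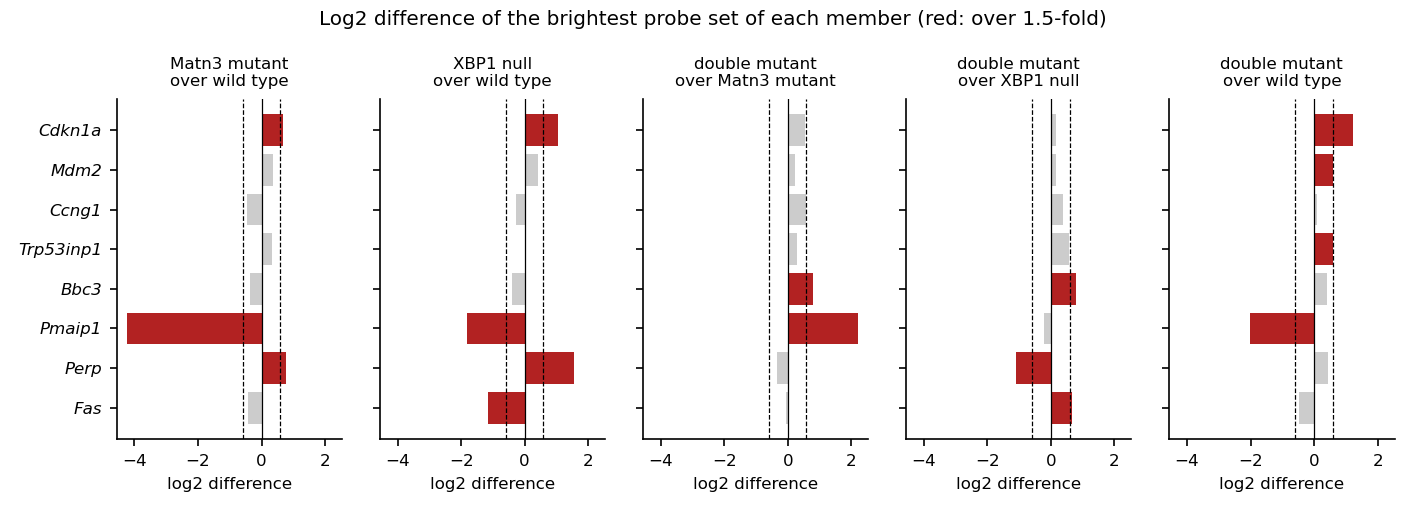
Log2 difference of the brightest probe set of each gene in the 5 comparisons, 1 array over 1 array, with no error. Red bars passed 1.5-fold, which the dashed lines mark. *Cdkn1a* was higher in all 3 mutants than in wild type, *Pmaip1* lower in all 3, and *Bbc3* higher in double mutant than in both single mutants.

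The double mutant array was the highest of the 4 for 5 of the 8 genes (*Cdkn1a*, *Mdm2*, *Ccng1*, *Bbc3* and *Trp53inp1*, by the brightest probe set) and the lowest for 0. Under quantile normalization *Ccng1* fell just below wild type, and other probe sets of *Mdm2* were highest in XBP1 null or wild type chondrocytes and the other one of *Trp53inp1* in *Matn3* mutant chondrocytes. Among genes at or above the median intensity this array was highest for 31.0% and lowest for 9.11%. Wild type was lowest for 4 of the 8 (*Cdkn1a*, *Mdm2*, *Perp* and *Trp53inp1*), against 35.5% of those genes. The *Matn3* mutant array was highest for 0 of the 8 and for 9.71% of those genes.

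The loss of XBP1 gave different values on the *Matn3* V194D and on the wild type *Matn3* background. For *Pmaip1* the log2 difference was 2.21 on the V194D background and −1.80 on the wild type one, a gap of 4.01. Its size is uncertain, since it rests on the low signal of 12.6 on the *Matn3* mutant array. For *Perp* it was −0.35 on the V194D background and 1.54 on the wild type one, a gap of −1.89. For *Bbc3* it was 0.79 and −0.39, for *Fas* −0.07 and −1.15, and for *Ccng1* 0.56 and −0.27. *Cdkn1a* and *Mdm2* were positive on both, at 0.55 and 1.06 for *Cdkn1a* and 0.23 and 0.42 for *Mdm2*. The gap was positive for 5 of the 8 genes and negative for 3, with a median of 0.54, and among genes at or above the median intensity it was positive for 6128 and negative for 4854, with a median of 0.09. The difference between the backgrounds uses all 4 arrays once, and was not tested.

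**Figure D3:**
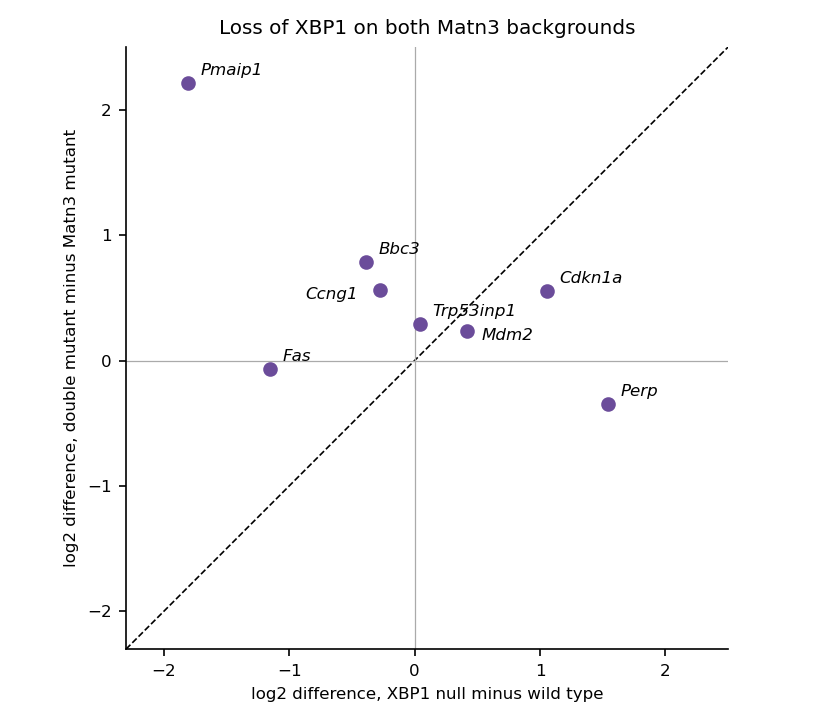
Log2 difference on loss of XBP1 for the 8 genes, on the V194D background (vertical axis, double mutant minus *Matn3* mutant) against the wild type background (horizontal axis, XBP1 null minus wild type), 1 array each. The dashed line marks equal differences. *Pmaip1* lies far above it at 2.21 against −1.80, and *Perp* far below it at −0.35 against 1.54.

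A limma fit to all 45037 probe sets, with a term for the *Matn3* genotype, a term for the *Xbp1* genotype and none for their interaction, has 1 residual degree of freedom and counts a departure from additive effects as error. After Benjamini-Hochberg adjustment it called 0% of probe sets for either effect, with a smallest adjusted p of 0.635 for the *Matn3* mutation and 0.819 for the loss of XBP1. At an unadjusted p under 0.05 it had 3381 probe sets (7.51%) for the *Matn3* mutation and 2052 (4.56%) for the loss of XBP1. Of the 14 probe sets of the p53 targets 0 were called. The brightest *Cdkn1a* probe set had a log2 effect of 0.81 ± 0.20 (SE) for the loss of XBP1 (limma, adjusted p = 0.819) and 0.41 ± 0.20 (SE) for the *Matn3* mutation (limma, adjusted p = 0.657). For *Pmaip1* the effect of the *Matn3* mutation was −2.23 ± 1.42 (SE) (limma, adjusted p = 0.681). *Cdkn1a* thus had a smaller error than *Pmaip1*, whose departure from additive effects was the largest of the 8 genes.

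Of 15 regulators of p53 measured, 6 were over 1.5-fold higher and 1 lower in *Matn3* mutant, 5 higher and 0 lower in XBP1 null, and 5 higher and 0 lower in double mutant chondrocytes, each over wild type. Of all genes 21.2%, 23.3% and 24.1% were higher and 19.3%, 11.5% and 12.1% lower in these comparisons. The counts of the 15 include *Trp63*, *Trp73* and *Cdkn2a*, which lie below the median intensity. Of the 12 at or above it, 4 were higher in *Matn3* mutant, 3 in XBP1 null and 4 in double mutant chondrocytes, and 0 were lower in any. Among all such genes 13.2%, 18.8% and 16.0% were higher and 17.6%, 5.82% and 6.89% lower in the same order. The medians of the 15 were 0.26, 0.30 and 0.18 on the log2 scale, beside 0, 0.09 and 0.13 over all genes. *Hipk2*, a kinase that phosphorylates p53, had signals of 707 in *Matn3* mutant, 513 in XBP1 null, 476 in double mutant and 199.7 in wild type chondrocytes on its brightest probe set. Its 5 probe sets at or above the median intensity disagreed, since 4 were higher in *Matn3* mutant and in XBP1 null than in wild type chondrocytes and 1 was lower, with signals of 102, 105 and 66.3 in *Matn3* mutant, XBP1 null and double mutant chondrocytes against 183 in wild type. The direction of *Hipk2* is therefore not settled by these probe sets. The deacetylase gene *Sirt1* was higher by 0.86, 0.79 and 0.61 in the same order, and *Ep300*, which encodes a coactivator of p53, by 0.65, 0.67 and 0.72. *Chek1*, a kinase of the DNA damage checkpoint, was 0.80 higher in *Matn3* mutant and 0.62 higher in double mutant chondrocytes than in wild type on its brightest probe set. All 3 of its probe sets at or above the median intensity were higher in both, but not all passed 1.5-fold. In *Matn3* mutant 2 passed it, and in double mutant chondrocytes 1 did, the others being at 0.22. *Mdm4*, the partner of MDM2, passed the threshold in none of the 5 comparisons.

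Further targets of p53 went both ways. Of 27 measured out of 28 listed, 4 were higher and 5 lower in *Matn3* mutant, 9 higher and 3 lower in XBP1 null, and 5 higher and 3 lower in double mutant chondrocytes, each over wild type, with medians of −0.06, 0.38 and 0.11. Of all genes 21.2%, 23.3% and 24.1% were higher and 19.3%, 11.5% and 12.1% lower in these comparisons. Of the 23 at or above the median intensity, 3 were higher and 5 lower in *Matn3* mutant, 7 higher and 2 lower in XBP1 null, and 3 higher and 2 lower in double mutant chondrocytes. Among all such genes 13.2%, 18.8% and 16.0% were higher and 17.6%, 5.82% and 6.89% lower. *Aen*, an exonuclease of apoptotic cells, had signals of 1222 in *Matn3* mutant, 1011 in XBP1 null, 862 in double mutant and 412 in wild type chondrocytes. *Zmat3*, a zinc finger protein that binds RNA, had 128, 176, 155 and 77.4 in the same order. *Aen* and *Zmat3* were thus lowest in wild type, as *Cdkn1a* was, but on their brightest probe set the highest array was not the double mutant. *Sesn2*, a stress-induced regulator of mTORC1, had 392, 218, 354 and 161, and on a second probe set 404, 340, 463 and 61.0, lowest in wild type on both. In contrast *Sfn*, the 14-3-3 sigma gene that also marks epithelium, had 147, 473, 346 and 364. The DNA repair gene *Ddb2* was 0.88 lower on the log2 scale in *Matn3* mutant and 0.69 lower in double mutant chondrocytes than in wild type. *Plk2*, a polo-like kinase, had 3372 in *Matn3* mutant, 3743 in XBP1 null, 1587 in double mutant and 2535 in wild type chondrocytes, and so was lowest where *Cdkn1a* was highest.

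Of the other proapoptotic BCL2 genes, 9 of 10 were measured. Over wild type, 0 were higher and 2 lower in *Matn3* mutant, 3 higher and 1 lower in XBP1 null, and 3 higher and 1 lower in double mutant chondrocytes. Of all genes 21.2%, 23.3% and 24.1% were higher and 19.3%, 11.5% and 12.1% lower in these comparisons. Double mutant over *Matn3* mutant had 4 higher and 0 lower with a median of 0.54, beside 17.4% and 9.03% of all genes and a median of 0.15. Of these 4 *Bik*, which encodes another BH3-only protein, had a signal of 4.38 in *Matn3* mutant chondrocytes and lies below the median intensity. For double mutant over XBP1 null chondrocytes 1 was higher and 2 lower, with a median of −0.04, beside 16.6% and 16.9% of all genes. *Bcl2l11*, which encodes the BH3-only protein BIM, had signals of 1042 in *Matn3* mutant, 1855 in XBP1 null, 1337 in double mutant and 854 in wild type chondrocytes, and its 5 probe sets were all higher in every mutant than in wild type. *Bok*, an effector related to BAX, had 63.6, 189, 113 and 73.5, with XBP1 null chondrocytes highest. *Hrk*, the BH3-only gene harakiri, had 74.9, 33.7, 126 and 60.5, and *Bad*, whose product binds BCL-XL, 233, 358, 392 and 419. *Hrk* shared with *Bbc3* its highest signal in double mutant chondrocytes. Its lowest was in XBP1 null chondrocytes, where *Bbc3* had 177, nearly the same as its 178 in *Matn3* mutant chondrocytes.

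Of 5 antiapoptotic BCL2 genes, 1 was higher and 1 lower in double mutant over wild type chondrocytes, 0 higher and 1 lower in *Matn3* mutant over wild type, and 0 in either direction in XBP1 null over wild type. In the same order 24.1%, 21.2% and 23.3% of all genes were higher and 12.1%, 19.3% and 11.5% lower. *Mcl1*, whose product NOXA binds, had signals of 9013 in *Matn3* mutant, 8219 in XBP1 null, 10845 in double mutant and 6289 in wild type chondrocytes. Wild type was the lowest array for *Mcl1* and the highest for *Pmaip1*. *Bcl2* itself passed 1.5-fold in none of the comparisons on its brightest probe set. Of its 3 probe sets at or above the median intensity, the 2 others were 0.72 and 0.74 lower on the log2 scale in *Matn3* mutant than in wild type chondrocytes. The dimmer of these was also 1.04 lower in double mutant than in wild type and 0.73 lower than in XBP1 null chondrocytes. The level of *Bcl2* therefore depends on the probe set.

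Around *Fas*, 9 of 10 genes of the death receptor pathway were measured. Over wild type, 1 was higher and 3 lower in *Matn3* mutant, 2 higher and 0 lower in XBP1 null, and 2 higher and 2 lower in double mutant chondrocytes. Of all genes 21.2%, 23.3% and 24.1% were higher and 19.3%, 11.5% and 12.1% lower in these comparisons. *Cflar*, which encodes the inhibitor of caspase-8 activation at the receptor, had signals of 908 in *Matn3* mutant, 921 in XBP1 null, 787 in double mutant and 486 in wild type chondrocytes on its brightest probe set, while a second had 223, 243, 232 and 221 and so hardly differed. *Tradd*, an adaptor of the TNF receptor, had 21.9, 56.3, 42.2 and 68.6 on its brightest probe set. A dimmer one, below the median intensity, had 18.6, 35.4, 33.2 and 21.0, so XBP1 null and double mutant chondrocytes were above wild type there. The probe sets of *Tradd* therefore disagreed in direction for these mutants. *Fasl*, the gene of the FAS ligand, was near the floor on all arrays, at 1.33 to 4.46.

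Of caspases and their inhibitors 15 of 17 were measured, all at or above the median intensity. Among them 0 were higher and 2 lower in *Matn3* mutant, 1 higher and 3 lower in XBP1 null, and 0 higher and 2 lower in double mutant chondrocytes, each over wild type. Of all genes at or above the median intensity 13.2%, 18.8% and 16.0% were higher and 17.6%, 5.82% and 6.89% lower in these comparisons. *Dffa*, which encodes the inhibitor of the caspase-activated DNase, had signals of 217 in *Matn3* mutant, 173 in XBP1 null, 131 in double mutant and 295 in wild type chondrocytes. *Birc2* and *Birc3*, which encode cellular inhibitors of apoptosis, were both lowest in XBP1 null chondrocytes. *Birc2* had signals of 1815 in *Matn3* mutant, 1149 in XBP1 null, 2274 in double mutant and 2293 in wild type chondrocytes, and *Birc3* was 0.85 higher on the log2 scale in double mutant than in XBP1 null chondrocytes. *Birc5*, which encodes survivin and is also expressed by dividing cells, was 0.93 lower in *Matn3* mutant and 0.59 lower in double mutant than in wild type chondrocytes.

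Other inhibitors of cyclin-dependent kinases did not share the pattern of *Cdkn1a*. Of 7 measured, 0 were higher in any mutant over wild type, 3 were lower in *Matn3* mutant, and 0 were lower in XBP1 null or double mutant chondrocytes. Of all genes 21.2%, 23.3% and 24.1% were higher and 19.3%, 11.5% and 12.1% lower in *Matn3* mutant, XBP1 null and double mutant chondrocytes. Of the 3, *Cdkn2a* had a signal of 5.34 in *Matn3* mutant chondrocytes and lies below the median intensity. Of the 6 at or above it, 2 were lower in *Matn3* mutant chondrocytes, against 17.6% of all such genes. *Cdkn2d*, the gene of p19-INK4d, had signals of 1419 in *Matn3* mutant, 1706 in XBP1 null, 2829 in double mutant and 2534 in wild type chondrocytes. *Cdkn1b*, the gene of p27, ran from 1082 in XBP1 null to 1282 in wild type chondrocytes on its brightest probe set. A dimmer one, also above the median intensity, had signals of 38.5 in *Matn3* mutant, 48.1 in XBP1 null and 39.7 in double mutant chondrocytes, against 75.9 in wild type. Each mutant was over 1.5-fold lower than wild type there, so the probe sets differed in size of change. Of 6 genes of the proapoptotic branch of the ER stress response, 1 was higher in each mutant over wild type, beside 21.2%, 23.3% and 24.1% of all genes. It was *Trib3*, a pseudokinase gene downstream of CHOP, with signals of 2437 in *Matn3* mutant, 2341 in XBP1 null, 2793 in double mutant and 1099 in wild type chondrocytes. *Ddit3*, which encodes CHOP, had 7053, 6726, 9927 and 7047, so that double mutant chondrocytes stood 1.41-fold above wild type, under the threshold. A second *Ddit3* probe set had 860, 688 and 839 in the mutants against 1966 in wild type, so the probe sets disagreed.

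**Figure D4:**
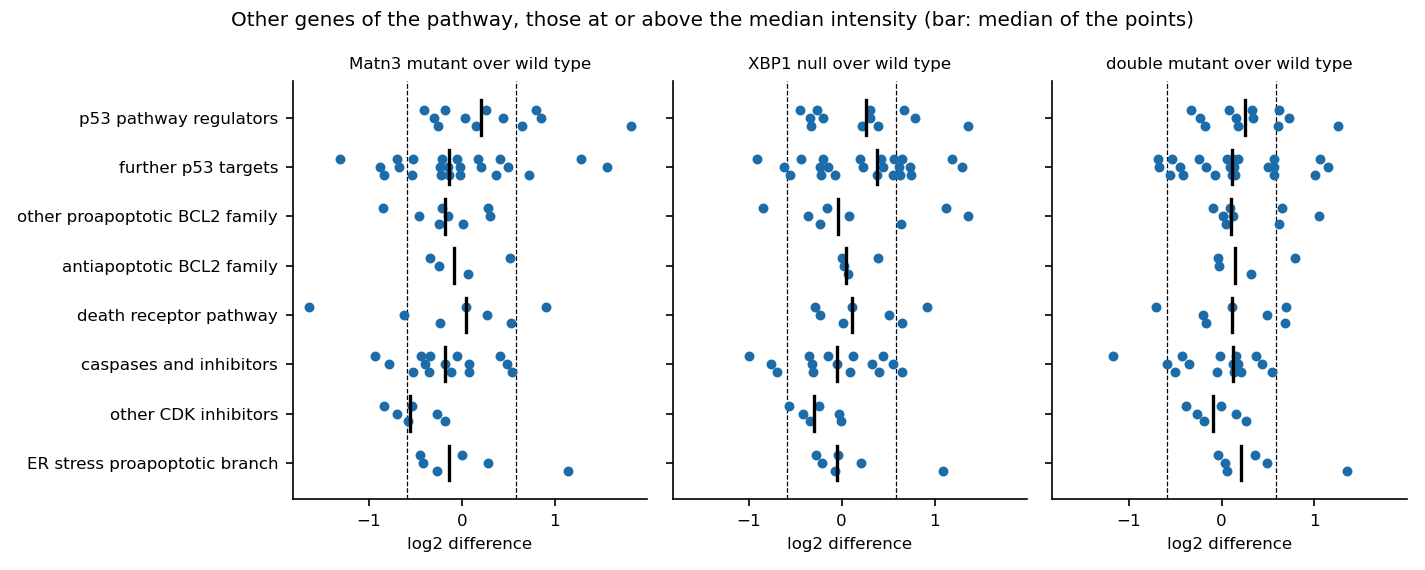
Log2 difference over wild type of the genes of 8 related lists that lie at or above the median intensity, 1 point per gene, for *Matn3* mutant, XBP1 null and double mutant chondrocytes. Thick bars are list medians and dashed lines mark 1.5-fold. Most genes lie between the lines, with the brightest *Hipk2* probe set at 1.82 and the brightest *Tradd* probe set at −1.65 farthest out in *Matn3* mutant chondrocytes.

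Across the 10982 genes at or above the median intensity, *Fosl2*, *Mgat5* and *Nfatc1* had the pattern over the 4 arrays nearest to *Cdkn1a*, with root mean square distances of 0.018, 0.023 and 0.028 between centred log2 signals. *Fosl2*, a gene of the AP-1 family, had signals of 2110 in *Matn3* mutant, 2871 in XBP1 null, 3180 in double mutant and 1371 in wild type chondrocytes. Nearest to *Pmaip1* were *Smim5*, *Gm14057* and *Adm*, at 0.366, 0.484 and 0.524, so its pattern had no neighbour as close. *Adm*, which encodes adrenomedullin, had 79.9, 285, 185 and 562 in the same order. With 4 arrays such likeness is a description of these pools.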

How the data were processed

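Each of the 4 genotypes had 1 pool of RNA on 1 mouse 3' expression array. The deposited values are linear intensities per probe set; how probes were summarized and normalized was not given in the sources used here. Control hybridizations were checked in Microarray Suite 5, and genes selected with PPLR and a 1.5-fold limit. PPLR needs errors of single probes and was not applied.

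Signals under 1 were set to 1 and taken as log2 without further scaling. Probe sets that name 1 gene (34945) were used, those that name several (932) or none (9160) were not, and a gene was its probe set with the highest mean log2. Differences over 1.5-fold were counted beside the share of all genes. The additive fit used limma 3.58.1 in R 4.3.3 (lmFit, eBayes with trend, Benjamini-Hochberg over all probe sets, threshold 0.05), tested on simulated data; tables used Python 3.11.15, numpy 2.4.6 and pandas 2.3.3. Named were all genes of the set and, of each list, up to 4 genes with the largest difference above the median intensity; some genes of known role (*Ddit3*, *Cdkn1b*, *Bcl2*, *Mdm4*, *Fasl*) were named after their values were seen. The genes and the lists were chosen with earlier results of these data known. Alternatives were centring, quantile normalization, a floor at the 25th percentile, the median over probe sets, and leaving out probe sets with suffix _a, _s or _x. The number of arrays limits the precision.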

Additional observations from a re-analysis of the deposited data

Results flagged for a closer look

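*Pmaip1* moved in opposite directions on loss of XBP1, with a log2 difference of 2.21 in double mutant over *Matn3* mutant chondrocytes and −1.80 in XBP1 null over wild type chondrocytes, a gap of 4.01. Its signal of 12.6 in the *Matn3* mutant pool enters this gap and has no detection call, so the size is uncertain. *Perp* moved in opposite directions with the *Matn3* mutation, at −1.11 in double mutant over XBP1 null chondrocytes and 0.78 in *Matn3* mutant over wild type chondrocytes, a gap of −1.89. Each value is 1 array over 1 array, and neither difference was tested.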

How the results depend on the processing

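Of 81 values under alternatives, 66 stayed near the value reported and 15 did not. A median counted as near within 0.1 on the log2 scale, and a count where the larger was at most 1.5 times the smaller. A count of 3 in place of 2 was thus near. Centring could hardly move a value, since the arrays had nearly equal medians, and the counts from the fit stayed at 0 in every setting. The 66 is therefore not a measure of robustness. The sign turned in 1 of the medians, that of *Matn3* mutant over wild type chondrocytes, which was 0.0383 with quantile normalization in place of −0.0294. With the median over the probe sets of a gene, the median of the 8 genes moved to −0.218 in *Matn3* mutant over wild type, −0.332 in XBP1 null over wild type, 0.313 in double mutant over *Matn3* mutant and 0.399 in double mutant over XBP1 null chondrocytes. Without probe sets whose suffix marks probes shared between transcripts, which leaves *Mdm2* with its dim probe set, these medians were −0.218, −0.332, 0.218 and 0.615. Quantile normalization gave −0.273 in XBP1 null over wild type and 0.281 in double mutant over *Matn3* mutant chondrocytes. Genes over 1.5-fold higher in double mutant over XBP1 null chondrocytes numbered 4 in place of 2 with the median over probe sets, and 4 without the shared probe sets. In double mutant over wild type chondrocytes they numbered 1 in place of 3, *Cdkn1a* alone, with the median over probe sets and with quantile normalization, and 2 in place of 1 were lower without the shared probe sets, where *Mdm2* turned to the lower side. Quantile normalization also turned *Ccng1* in double mutant over wild type chondrocytes from 0.10 to −0.02. The cause of these shifts was not tested. With 1 array per genotype no array could be left out and no replicate spread was available, so the size of chance differences between pools is unknown. The signal of *Pmaip1* in *Matn3* mutant chondrocytes has no detection call here, so the sizes of its folds are uncertain. No paired analysis was possible because each genotype has 1 array.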
